A study of Homo sapiens with 14 samples.

Results

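The DNA replication licensing and fork genes are 41 human genes, taken as a named list and looked up by symbol among the 24729 genes of the deposited count table. All 41 were in the table and all 41 passed the filter on low counts, which kept 14406 genes. RNA-seq had been run on 14 libraries of K562, an established erythroleukemia cell line. The 2 WT libraries came from K562 without dCas9 or sgRNA. The other 4 groups of 3 libraries all carried FB-dCas9, a nuclease-dead Cas9 with a Flag and biotin-acceptor tag, together with BirA, the bacterial enzyme that biotinylates such a tag. Their guide RNAs were sgGal4, which has no target in the human genome, sgHBG for the γ-globin gene promoters, sgHS2 for the HS2 enhancer upstream of the β-like globin genes, or sgHS1-5 for several hypersensitive sites of the same control region. None of these guides is aimed at a replication gene. The promoter that drives dCas9, and whether each line was a clone or a pool, are not given in the sources used here. The study asked how global expression changed in cells that hold dCas9 at elements of the β-globin cluster.

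A replication origin is licensed before S phase. The origin recognition complex (ORC1 to ORC6) recruits the loaders CDC6 and CDT1, which place the MCM2-7 helicase on DNA, while geminin (GMNN) holds CDT1 back once S phase has begun. The kinase CDC7 with its activator DBF4, and cyclin E with its kinase partner, then help CDC45 and the GINS proteins turn MCM2-7 into the working helicase, and polymerases, the PCNA clamp, its RFC loader, flap nuclease and ligase build the daughter strands. Many of these genes are known targets of E2F transcription factors and peak in proliferating cells around the passage from G1 into S phase.

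Because E2F control is the shared feature these genes are best known for, their start-site regions were read first. RefSeq promoter windows (GRCh38.p14, 250 bases before to 50 after the start) were matched by symbol for 37 of the 41 genes. MCM4, CCNE2, GINS4 and MCM5 were unmatched. For a gene with several windows only the first was read, so a word in another window would be missed. Among the 41 these were ORC4, GMNN, CDC45, POLD1 and RRM2, counted without an E2F word, and MCM7, CDC7 and PCNA, counted with one. The E2F words searched on both strands were TTCCCGC and TTGGCGC, together with TTCGCGC and TTGCCGC, and words on opposite strands can overlap. At least 1 word was in 25 of 37 windows (67.6%), in 13% of all 35116 windows of the table and in 19.9% of the 10486 windows matched among the 14365 other genes tested here. The letters CCAAT were in 20 of 37 windows (54.1%), against 34.6% of all windows and 36.6% of those of other tested genes. The word TTTGAA, a core of the cell cycle homology region of G2/M genes, was in 1 window (2.7%), that of DBF4, against 15.2% of all windows and 10% of those of other tested genes. A match is a run of letters, not a measured binding site. The 6 windows shown here run from 200 bases before to 20 bases after the start, 5′ to 3′ on the gene's strand, with E2F words in capitals. They are E2F1, which encodes such a factor and holds 2 words beside its start, CDC6, MCM3, MCM7 and POLE, which have words and differed between groups, and ORC6, which has none and differed too.

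E2F1 (chr20:33686366-33686585, minus strand): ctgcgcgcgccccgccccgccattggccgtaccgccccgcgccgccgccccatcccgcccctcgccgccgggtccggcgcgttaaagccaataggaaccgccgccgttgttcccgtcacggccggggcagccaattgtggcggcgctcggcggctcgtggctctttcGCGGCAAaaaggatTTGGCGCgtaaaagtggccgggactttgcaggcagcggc
CDC6 (chr17:40287679-40287898, plus strand): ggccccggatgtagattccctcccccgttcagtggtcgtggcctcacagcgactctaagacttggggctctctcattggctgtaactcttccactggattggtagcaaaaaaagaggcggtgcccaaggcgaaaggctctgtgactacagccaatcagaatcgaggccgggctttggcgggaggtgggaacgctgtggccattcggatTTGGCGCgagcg
MCM3 (chr6:52284723-52284942, minus strand): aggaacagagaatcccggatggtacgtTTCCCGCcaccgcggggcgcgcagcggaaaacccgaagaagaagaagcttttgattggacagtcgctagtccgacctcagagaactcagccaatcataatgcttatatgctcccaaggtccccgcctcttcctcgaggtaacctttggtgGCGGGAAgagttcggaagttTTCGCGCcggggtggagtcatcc
MCM7 (chr7:100101378-100101597, minus strand): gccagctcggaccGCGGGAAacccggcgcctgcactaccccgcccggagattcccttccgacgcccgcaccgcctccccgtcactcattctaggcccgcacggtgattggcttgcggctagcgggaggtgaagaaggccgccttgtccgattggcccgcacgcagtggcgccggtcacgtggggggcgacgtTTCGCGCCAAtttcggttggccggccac
POLE (chr12:132687323-132687542, minus strand): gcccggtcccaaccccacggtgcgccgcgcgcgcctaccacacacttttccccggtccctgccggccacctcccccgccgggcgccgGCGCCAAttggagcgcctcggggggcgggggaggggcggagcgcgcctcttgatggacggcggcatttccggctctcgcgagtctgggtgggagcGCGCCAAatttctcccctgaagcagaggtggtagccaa
ORC6 (chr16:46689459-46689678, plus strand): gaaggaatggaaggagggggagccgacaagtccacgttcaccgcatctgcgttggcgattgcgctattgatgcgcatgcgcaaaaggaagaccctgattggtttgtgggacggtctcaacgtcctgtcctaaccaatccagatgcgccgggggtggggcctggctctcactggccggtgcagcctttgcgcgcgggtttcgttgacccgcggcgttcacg

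Read against the tests described further on, 21 of the 29 matched genes called lower in sgHS2 than in sgGal4 had an E2F word, and so did 3 of the 7 that were not called. Of the 14 matched genes called higher in sgHS1-5 than in sgGal4, 10 had a word, against 13 of 19 not called. These counts are a description, and no test was run on them.

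The libraries held 9498578 to 11335831 counted reads in WT, sgGal4, sgHBG and sgHS2, and 5694448 to 6773888 in sgHS1-5. Each of the 41 genes had at least 58 reads in every library. Levels are given as CPM, counts scaled to library size with TMM, a method that sets the libraries to a common level of most genes. Libraries sgGal4 1, sgHS2 2 and sgHS1-5 2 stood apart from the other replicates of their group: the chi-square per degree of freedom over genes was 84.1 and 87.6 for sgGal4 1 against 1.46 between the other pair, 15.6 and 16.3 for sgHS2 2, and 11.2 and 17.1 for sgHS1-5 2. Replicate pairs without these libraries gave 1.24 to 1.71, little beyond counting noise, except 3.01 for sgHS1-5 1 and 3. K562 and erythroid markers, of which at least 13 of 15 were above 1 CPM in every group, summed to 2905 to 3158 CPM in sgHS2, 2049 to 2402 CPM in sgGal4, 2317 to 2333 CPM in sgHBG, 2172 to 2737 CPM in sgHS1-5 and 1942 to 1975 CPM in WT. The sgHS2 sums lay above those of every other group, and the WT sums below them. Their part in the results on the 41 genes was not tested. The 6 myeloid markers summed to 112, 2077 and 465 CPM in sgHS1-5 and to 48.2 to 208 CPM elsewhere, with MPO at 19.4, 1413 and 264 CPM in sgHS1-5 and under 1 CPM in every other library. The lymphoid list summed to 347 to 401 CPM in sgHS1-5, and its B cell gene MS4A1, at 0 in all 11 other libraries, read 2.43, 38.9 and 9.59 CPM there. Outside sgHS1-5 the lymphoid list summed to 136 to 396 CPM. The part of the myeloid and lymphoid markers in the sgHS1-5 results was not tested. Without sgHS1-5 2 and 3, which held the most MPO, 7 of the 41 genes were called higher and 1 lower in sgHS1-5 than in sgGal4, which leaves sgHS1-5 with 1 library. The median log2 difference of the 41 was then 0.19 in place of 0.24, and 17.2% of all genes were called in place of 40.4%. Fibroblast and epithelial markers summed to 1614 to 2941 CPM over the 14 libraries, of which VIM alone held 1016 to 1906 CPM. The megakaryocyte list summed to 244 to 248 CPM in sgHBG and 46.9 to 132 CPM elsewhere. In bulk RNA, fewer cells in S phase or of a given type and less RNA per cell cannot be told apart. Whether replicates were separate cultures is not stated, so each p reflects how far these particular libraries scatter, which may be technical.

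The 41 genes took the largest share of reads in WT and the smallest in sgHS2. They held 0.582 and 0.587% of counted reads in WT, 0.505, 0.556 and 0.510% in sgHS1-5, 0.325, 0.358 and 0.358% in sgGal4, 0.345, 0.346 and 0.349% in sgHBG and 0.264, 0.266 and 0.261% in sgHS2. These are shares of raw counts, without the TMM scaling used for CPM. On them the sgGal4 and sgHBG libraries overlapped, and the other groups were separate from these and from each other. The TMM factor was 0.743 for sgGal4 1 and 0.955 to 1.10 for the other libraries. Scaling therefore raises sgGal4 1 most, and the overlap of sgGal4 and sgHBG holds for the unscaled shares only. By gene, the highest group mean was in WT for 26 genes, in sgHS1-5 for 9 and in sgGal4 for 6. The lowest mean was in sgHS2 for 36 genes, in sgGal4 for 2, in sgHBG for 2 and in WT for 1.

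**Figure D1:**
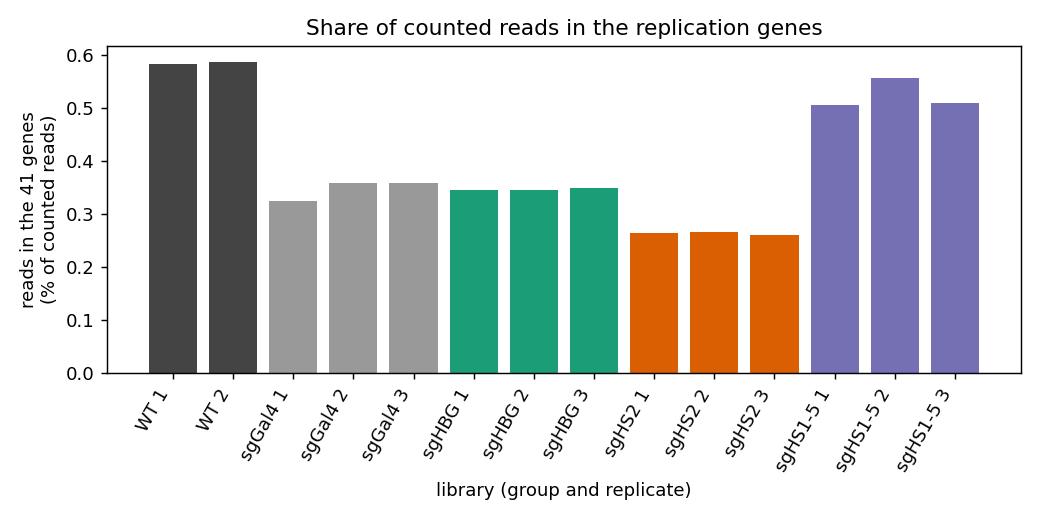
Share of all counted reads (percent, y axis, without TMM scaling) that fell in the 41 replication genes, with 1 bar for each library (x axis), colored by group. WT lies at 0.582 and 0.587%, sgHS1-5 at 0.505 to 0.556%, sgGal4 and sgHBG between 0.325 and 0.358%, and sgHS2 at 0.261 to 0.266%.

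Compared per length, on the authors' RPKM scale (reads scaled to transcript length and library depth), MCM7 was the most abundant of the 41 transcripts in each of the 5 groups, at 219.8 ± 1.43 RPKM in WT (SD, n = 2) and 110.4 ± 14.3 RPKM in sgHS2 (SD, n = 3). CDC45 came next in WT at 166 ± 1.57 RPKM (SD, n = 2), followed by CDT1 at 116 ± 2.02 RPKM and TYMS at 111 ± 0.249 RPKM. The least abundant in WT were POLA1 at 8.15 ± 0.381 RPKM, CCNE2 at 9.99 ± 0.414 RPKM and GINS3 at 10.2 ± 0.619 RPKM. The other MCM2-7 subunits stood between 53.0 RPKM (MCM6) and 83.8 RPKM (MCM3) in WT, well under MCM7.

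**Figure D2:**
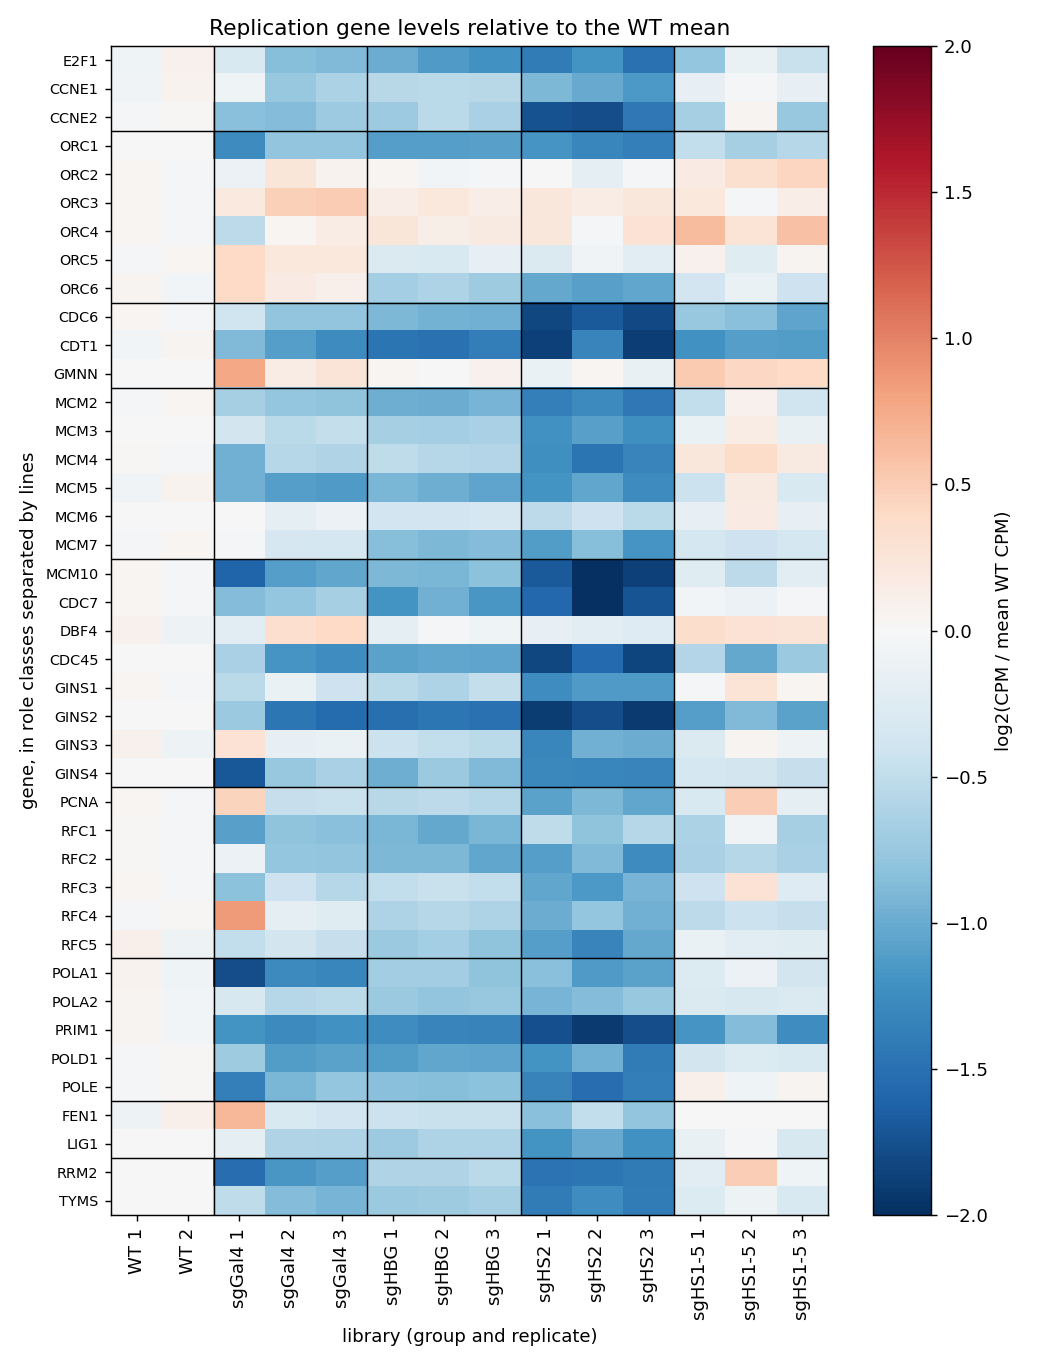
Level of each of the 41 genes (rows, in role classes) in each of the 14 libraries (columns), as log2 of the CPM over the mean WT CPM, on a color scale from −2 to 2. Blue marks a level under WT: most rows are darkest in sgHS2 and palest in sgHS1-5, while ORC2 to ORC4, GMNN and DBF4 are near or above WT in most libraries.

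Differences were tested gene by gene with edgeR's quasi-likelihood test over all 14406 genes, and a gene was called at a Benjamini-Hochberg adjusted p under 0.05. Differences are log2 ratios of fitted levels, given ± SE. Between sgHS2 and the non-targeting sgGal4, 1 of the 41 were called higher and 31 lower, with a median log2 difference of −0.59; over all genes tested 14.5% were called higher and 15.6% lower, and their median was −0.016. A fall of at least 2-fold was reached by ORC6, CDC6, CDC7, GINS3 and RFC4. Between sgHBG and sgGal4, 2 of the 41 were called higher and 7 lower (background 12.1% higher, 12.6% lower), with a median of −0.21 against −0.0012 for all genes. The share called lower, 7 of 41, is near that background. Between sgHS1-5 and sgGal4, 17 of the 41 were called higher and 4 lower (background 20.3% and 20.2%), with a median of 0.24 against 0.019. These 3 comparisons share the sgGal4 libraries, so their values are given side by side and their overlap is not read. With 1 library left out, the number called higher in sgHS2 against sgGal4 went from 1 to 0 without sgGal4 1, sgHS2 1 or sgHS2 3. The number called lower in sgHBG against sgGal4 went from 7 to 3 without sgHBG 1, sgHBG 2 or sgHBG 3. That called lower in sgHS1-5 against sgGal4 went from 4 to 1 without sgHS1-5 2 or sgHS1-5 3 and 2 without sgGal4 2 or sgGal4 3.

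Cells with dCas9 and the non-targeting guide already differed from unmodified K562. In sgGal4 against WT, 2 of the 41 were called higher and 27 lower (background 22.7% and 19.6%), and the median was −0.59 against 0.034 for all genes. The same WT libraries served for the other 3 groups. Against them 35 genes were lower in sgHS2 and 0 higher (background 15.5% lower, 17.6% higher, median −1.14). In sgHBG 31 were lower and 0 higher (background 15.9% and 17.7%, median −0.71). In sgHS1-5 9 were lower and 2 higher (background 19.5% and 23.4%, median −0.20). With 1 library left out, the number called higher in sgGal4 against WT went from 2 to 0 without WT 1 or WT 2. The number called higher in sgHS1-5 against WT went from 2 to 0 without WT 1, WT 2 or sgHS1-5 3 and 1 without sgHS1-5 1 or sgHS1-5 2. At both counts of 0 by edgeR, 0 members were higher at an unadjusted p under 0.05 and 0 were called higher by DESeq2 or by limma-trend.

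Among the targeting guides, 36 genes were higher and 0 lower in sgHS1-5 than in sgHS2 (background 20.4% and 18.5%, median 0.89). In sgHS1-5 against sgHBG, 21 were higher and 0 lower (background 12.4% and 12.8%, median 0.47). In sgHS2 against sgHBG, 15 were lower and 0 higher (background 5.15% and 3.76%, median −0.38). Over these 3 comparisons the median of all genes lay between 0 and 0.034. At these 3 counts of 0 by edgeR, 0 members passed in that direction at an unadjusted p under 0.05, and DESeq2 and limma-trend called 0.

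The counts were also taken without the libraries that stand apart. Without sgGal4 1, sgHS2 2, sgHS1-5 2 and sgHS1-5 3, where sgHS1-5 keeps 1 library whose spread is assumed to be that of the other groups, 36 genes were lower and 3 higher in sgHS2 than in sgGal4. Over all genes, 58.7% were called in that comparison, against 30.1% with all libraries. In the same fit, 33 were lower and 4 higher in sgGal4 than in WT, and 22 were higher and 3 lower in sgHS1-5 than in sgGal4. The share of all genes called was 70.2% for sgGal4 against WT and 47.8% for sgHS1-5 against sgGal4, from 42.4% and 40.4%. In sgHBG against sgGal4 the count went to 21 lower and 6 higher, while the share of all genes called went from 24.7% to 55.5%. In sgHS1-5 against WT it went to 26 lower and 5 higher, with 58.9% of all genes called in place of 42.9%. Fits of only the 2 compared groups gave 16 lower in sgHS2 than in sgGal4, 8 higher in sgHS1-5 than in sgGal4 and 18 lower in sgGal4 than in WT, all fewer than with the 5 groups together. They gave more calls in sgHS2 against sgHBG, at 24 lower, in sgHS1-5 against sgHBG, at 34 higher, in sgHBG against WT, at 36 lower, and in sgHS1-5 against WT, at 13 lower. The share of all genes called was 17.7%, 17.1% and 26.3% in the first 3 of these fits and 26.7%, 40.6%, 72.1% and 49.9% in the other 4.

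**Figure D3:**
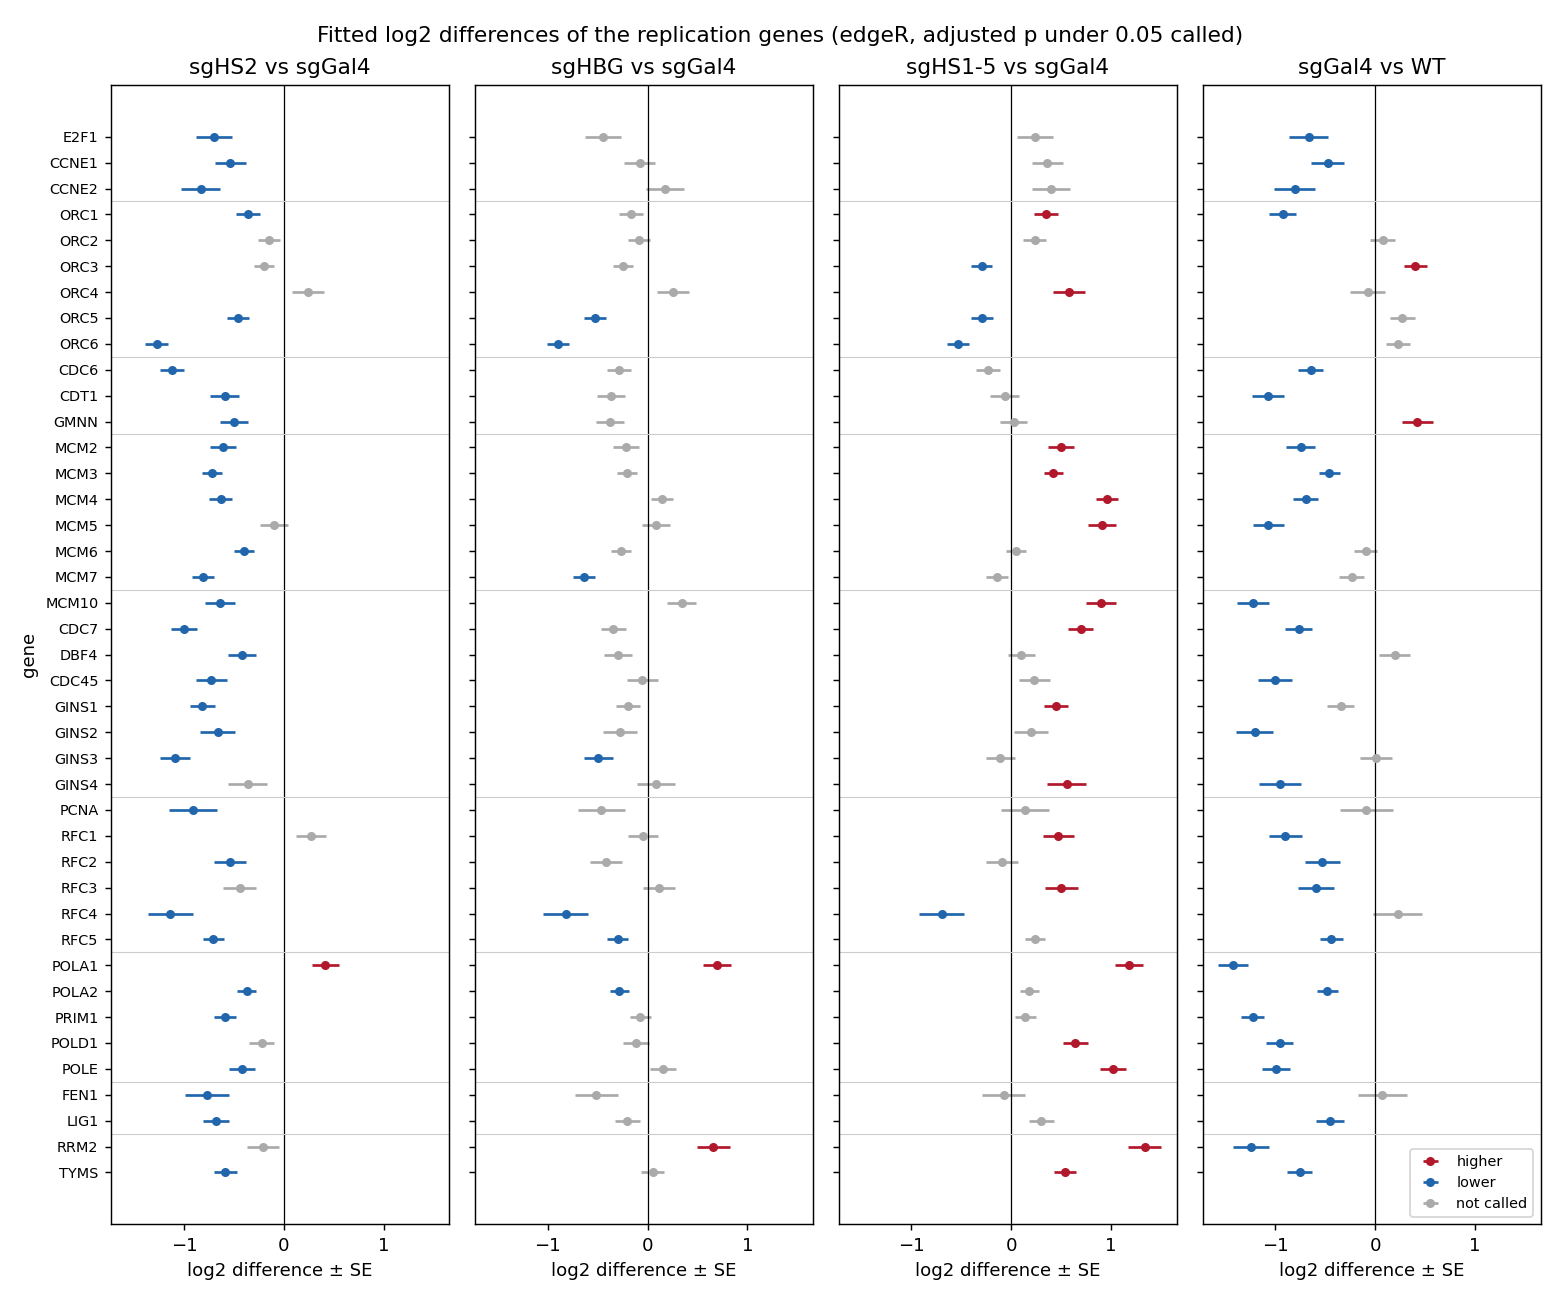
Fitted log2 differences (x axis, points) with SE (bars) of the 41 genes (y axis, grouped by role) in 4 comparisons. Red and blue points were called higher and lower, and gray points were not called: 31 are blue in sgHS2 against sgGal4, 7 in sgHBG against sgGal4, 4 in sgHS1-5 against sgGal4 and 27 in sgGal4 against WT.

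E2F1 and the 2 cyclin E genes, which act upstream of origin firing, were lower in sgHS2 than in sgGal4 and lower in sgGal4 than in WT (3 of 3 in both). E2F1 encodes an activator E2F factor. E2F1 stood at 52.8 and 59.1 CPM in WT, 45.1, 30.9 and 30.3 CPM in sgGal4 and 28.0, 25.4 and 24.2 CPM in sgHBG. In sgHS2 E2F1 was at 21.2, 24.3 and 19.8 CPM, and in sgHS1-5 at 32.7, 50.9 and 40.96 CPM. No sgHS2 library reached any sgGal4, sgHS1-5 or WT library, while sgHBG overlapped sgHS2. E2F1 fell 1.62-fold in sgHS2 against sgGal4 (log2 −0.70 ± 0.18, adjusted p = 0.0118) and 1.59-fold in sgGal4 against WT (log2 −0.67 ± 0.20, adjusted p = 0.0151). The E2F1 call between sgHS2 and sgGal4 was lost without sgHS2 3 (log2 −0.63, adjusted p = 0.0533). For E2F1, sgGal4 and WT no longer differed at the threshold without WT 2, sgGal4 2 or sgGal4 3, each left out alone (log2 −0.59 to −0.56, adjusted p = 0.0504 to 0.107).

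CCNE2 encodes a cyclin E that binds CDK2. CCNE2 was measured at 20.9 and 21.8 CPM in the WT libraries, 11.9, 11.7 and 12.9 CPM in sgGal4 and 12.9, 14.7 and 13.6 CPM in sgHBG. For CCNE2, sgHS2 gave 6.38, 6.22 and 7.92 CPM and sgHS1-5 13.4, 22.1 and 12.6 CPM. Every sgHS2 library was under every other library, and sgHS1-5 2 lay near the WT level, above its replicates. CCNE2 was 1.78-fold lower in sgHS2 than in sgGal4 (log2 −0.83 ± 0.20, adjusted p = 0.00685) and 2.01-fold lower than in sgHBG (log2 −1.004 ± 0.19, adjusted p = 0.00686). WT libraries held 21.2 and 23.3 CPM of CCNE1, sgGal4 libraries 20.9, 13.2 and 14.3 CPM and sgHBG libraries 15.1, 15.3 and 15.1 CPM. CCNE1 reached 11.98, 11.05 and 10.04 CPM in sgHS2 and 19.9, 21.7 and 19.9 CPM in sgHS1-5. For CCNE1, the other cyclin E gene, sgGal4 1 stood with WT and the other sgGal4 libraries lay just under sgHBG. CCNE1 differed between sgHS2 and sgGal4 by log2 −0.54 ± 0.16, adjusted p = 0.0215, and between sgGal4 and WT by log2 −0.48 ± 0.17, adjusted p = 0.0374. The CCNE1 call between sgHS2 and sgGal4 was lost without sgHS2 3 (log2 −0.47, adjusted p = 0.0865). The CCNE1 difference between sgHS2 and sgGal4 was log2 −0.32, adjusted p = 0.0376, without sgGal4 1. For CCNE1, sgGal4 and WT no longer differed at the threshold without WT 1, WT 2, sgGal4 2 or sgGal4 3, each left out alone (log2 −0.55 to −0.35, adjusted p = 0.0845 to 0.198).

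The 6 ORC genes did not move as a block. ORC1, the regulated subunit with ATPase activity, followed the pattern of the whole list, whereas ORC2 to ORC5 stayed within a log2 difference of 0.505 of WT in each group. ORC1 stood at 129 and 128 CPM in WT, 53.6, 74.1 and 74.7 CPM in sgGal4 and 60.1, 59.6 and 60.8 CPM in sgHBG. In sgHS2 ORC1 was at 56.7, 51.9 and 49.8 CPM, and in sgHS1-5 at 91.0, 81.0 and 86.8 CPM. All WT libraries were above all others, and sgHS1-5 was above the remaining 3 groups. ORC1 was 1.90-fold lower in sgGal4 than in WT (log2 −0.93 ± 0.13, adjusted p = 0.000117), lower in sgHS2 than in sgGal4 (log2 −0.36 ± 0.12, adjusted p = 0.0402) and higher in sgHS1-5 than in sgGal4 (log2 0.35 ± 0.12, adjusted p = 0.0336). The ORC1 call between sgHS2 and sgGal4 was lost without sgGal4 2, sgGal4 3, sgHS2 1, sgHS2 2 or sgHS2 3, each left out alone (log2 −0.41 to −0.28, adjusted p = 0.0559 to 0.133). For ORC1, sgHS1-5 and sgGal4 no longer differed at the threshold without sgHS1-5 1 or sgHS1-5 3, each left out alone (log2 0.31 to 0.35, adjusted p = 0.0759 to 0.0936). The ORC1 difference between sgHS1-5 and sgGal4 was log2 0.21, adjusted p = 0.0354, without sgGal4 1.

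ORC6, the smallest subunit, differed in another way: it was not called between sgGal4 and WT (log2 0.23, adjusted p = 0.148) and was lower than sgGal4 in each targeting group. ORC6 was measured at 46.2 and 42.5 CPM in the WT libraries, 58.6, 49.8 and 47.4 CPM in sgGal4 and 27.6, 28.99 and 27.1 CPM in sgHBG. For ORC6, sgHS2 gave 21.9, 20.8 and 21.6 CPM and sgHS1-5 34.2, 40.3 and 33.1 CPM. The 5 groups did not overlap for ORC6. It was 2.42-fold lower in sgHS2 (log2 −1.27 ± 0.11, adjusted p = 5.02e-06), 1.86-fold lower in sgHBG (log2 −0.89 ± 0.11, adjusted p = 0.000119) and 1.45-fold lower in sgHS1-5 (log2 −0.53 ± 0.11, adjusted p = 0.00234), all against sgGal4. ORC6 has the shortest transcripts of the 6 ORC genes at 1699 bases, and in sgGal4 1 it was 0.27 (log2) above the other sgGal4 libraries. Without sgGal4 1, the sgHS2 difference was log2 −1.18, adjusted p = 1.05e-06. Of the rest, ORC3 was higher in sgGal4 than in WT (log2 0.40 ± 0.11, adjusted p = 0.0132), ORC5 was lower in sgHS2 than in sgGal4 (log2 −0.46 ± 0.11, adjusted p = 0.00722), ORC4 was higher in sgHS1-5 than in sgGal4 (log2 0.58 ± 0.16, adjusted p = 0.0126), and ORC2 was not called in any of the comparisons with sgGal4 or WT. The ORC3 call between sgGal4 and WT was lost without WT 1 or WT 2, each left out alone (log2 0.36 to 0.44, adjusted p = 0.0633 to 0.116).

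CDC6 and CDT1, which load the helicase, and geminin, which restrains CDT1, were all lower in sgHS2 than in sgGal4. Relative to the shared WT libraries, the loaders were lower in all 4 groups with dCas9 and geminin was called lower in none of them. CDC6 stood at 167 and 159 CPM in WT, 124, 94.7 and 94.5 CPM in sgGal4 and 87.9, 84.7 and 83.8 CPM in sgHBG. In sgHS2 CDC6 was at 46.4, 50.8 and 46.6 CPM, and in sgHS1-5 at 96.2, 91.2 and 78.9 CPM. WT was above all, sgHS2 was below all, and sgHS1-5 overlapped sgGal4 and sgHBG. CDC6 fell 2.17-fold in sgHS2 against sgGal4 (log2 −1.12 ± 0.12, adjusted p = 2.35e-05) and 3.40-fold against WT (log2 −1.77 ± 0.13, adjusted p = 8.47e-07). In sgHS1-5, where 30 of the 41 genes were not called against WT, CDC6 was 1.84-fold lower than WT (log2 −0.88 ± 0.13, adjusted p = 0.000163).

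CDT1 was measured at 309 and 332 CPM in the WT libraries, 174, 149 and 134 CPM in sgGal4 and 117, 114 and 124 CPM in sgHBG. For CDT1, sgHS2 gave 88.3, 128 and 87.3 CPM and sgHS1-5 139, 149.9 and 147 CPM. CDT1 was highest in WT without overlap, and sgHBG overlapped sgHS2. It was 2.10-fold lower in sgGal4 than in WT (log2 −1.07 ± 0.16, adjusted p = 0.000154), 2.20-fold lower in sgHS1-5 than in WT (log2 −1.14 ± 0.16, adjusted p = 0.000105) and 1.51-fold lower in sgHS2 than in sgGal4 (log2 −0.59 ± 0.14, adjusted p = 0.00822). WT libraries held 58.9 and 58.2 CPM of GMNN, sgGal4 libraries 101, 65.2 and 70.2 CPM and sgHBG libraries 60.4, 58.9 and 61.8 CPM. GMNN reached 53.7, 60.1 and 53.0 CPM in sgHS2 and 84.0, 78.2 and 76.9 CPM in sgHS1-5. For GMNN, sgGal4 1 was the highest library and the WT libraries lay among those of sgHBG and sgHS2. GMNN was higher than WT in sgGal4 (log2 0.42 ± 0.16, adjusted p = 0.0443) and in sgHS1-5 (log2 0.45 ± 0.16, adjusted p = 0.0357), and lower in sgHS2 than in sgGal4 (log2 −0.50 ± 0.14, adjusted p = 0.0166). The GMNN call between sgGal4 and WT was lost without WT 1, WT 2 or sgGal4 1, each left out alone (log2 0.21 to 0.43, adjusted p = 0.0541 to 0.177). For GMNN, sgHS1-5 and WT no longer differed at the threshold without WT 1, WT 2, sgHS1-5 1, sgHS1-5 2 or sgHS1-5 3, each left out alone (log2 0.41 to 0.48, adjusted p = 0.0527 to 0.155). GMNN was not called between sgHS2 and sgGal4 without sgHS2 1 or sgHS2 3, each left out alone (log2 −0.47, adjusted p = 0.0609 to 0.0635). The GMNN difference between sgHS2 and sgGal4 was log2 −0.29, adjusted p = 0.0107, without sgGal4 1.

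The 6 subunits of the MCM2-7 helicase form 1 ring, but their transcripts did not fall in step. All 6 were lower in sgHS2 than in WT and all 6 were higher in sgHS1-5 than in sgHS2. Between sgHS2 and sgGal4, 5 of 6 were lower and MCM5 was not called (log2 −0.10, adjusted p = 0.646). MCM3 stood at 326 and 328 CPM in WT, 255, 225 and 234 CPM in sgGal4 and 206, 204 and 209 CPM in sgHBG. In sgHS2 MCM3 was at 141, 153 and 140.2 CPM, and in sgHS1-5 at 299, 361 and 295 CPM. MCM3 stepped down from WT to sgGal4, sgHBG and sgHS2 with no overlap, and sgHS1-5 lay on both sides of WT. It was 1.64-fold lower in sgHS2 than in sgGal4 (log2 −0.72 ± 0.10, adjusted p = 0.000159) and 1.34-fold higher in sgHS1-5 than in sgGal4 (log2 0.42 ± 0.10, adjusted p = 0.00469).

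MCM4 had the largest fitted difference between sgHS1-5 and sgHS2 of the 6 subunits. MCM4 was measured at 302 and 289 CPM in the WT libraries, 152, 199 and 195 CPM in sgGal4 and 207, 198 and 197 CPM in sgHBG. For MCM4, sgHS2 gave 126, 107 and 119 CPM and sgHS1-5 344, 380.2 and 336 CPM. All sgHS1-5 libraries were above WT, and all sgHS2 libraries were below the rest. MCM4 was 3.01-fold higher in sgHS1-5 than in sgHS2 (log2 1.59 ± 0.11, adjusted p = 1.08e-06) and 1.94-fold higher than in sgGal4 (log2 0.96 ± 0.11, adjusted p = 4.65e-05). Against WT, its level in sgHS1-5 was not called (log2 0.26, adjusted p = 0.112). WT libraries held 162 and 179 CPM of MCM5, sgGal4 libraries 87.4, 79.1 and 77.5 CPM and sgHBG libraries 90.6, 86.3 and 82.2 CPM. MCM5 reached 74.6, 82.5 and 71.1 CPM in sgHS2 and 127, 192 and 138 CPM in sgHS1-5. MCM5 split the libraries into a high set, WT and sgHS1-5, and a low set in which sgGal4, sgHBG and sgHS2 overlapped. It was 2.10-fold lower in sgGal4 than in WT (log2 −1.07 ± 0.15, adjusted p = 0.000124) and 1.88-fold higher in sgHS1-5 than in sgGal4 (log2 0.91 ± 0.14, adjusted p = 0.000351).

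MCM7 differed from both. MCM7 stood at 717 and 753 CPM in WT, 716, 582 and 576 CPM in sgGal4 and 406, 395 and 405 CPM in sgHBG. In sgHS2 MCM7 was at 337, 406 and 324 CPM, and in sgHS1-5 at 575, 553 and 574 CPM. The sgHBG and sgHS2 libraries shared the low end, and sgHS1-5 lay between them and WT. MCM7 was not called between sgGal4 and WT (log2 −0.23, adjusted p = 0.143), and was 1.76-fold lower in sgHS2 (log2 −0.81 ± 0.11, adjusted p = 0.000169) and 1.55-fold lower in sgHBG (log2 −0.64 ± 0.11, adjusted p = 0.00152) than in sgGal4. MCM7 was also lower in sgHS1-5 than in WT (log2 −0.37 ± 0.12, adjusted p = 0.0258). MCM2 was lower in sgHS2 than in sgGal4 by log2 −0.61 ± 0.13, adjusted p = 0.0041. MCM6 changed by less, at log2 −0.39 ± 0.10, adjusted p = 0.0111. The MCM7 call between sgHS1-5 and WT was lost without WT 1, WT 2, sgHS1-5 1, sgHS1-5 2 or sgHS1-5 3, each left out alone (log2 −0.41 to −0.35, adjusted p = 0.0502 to 0.135).

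**Figure D4:**
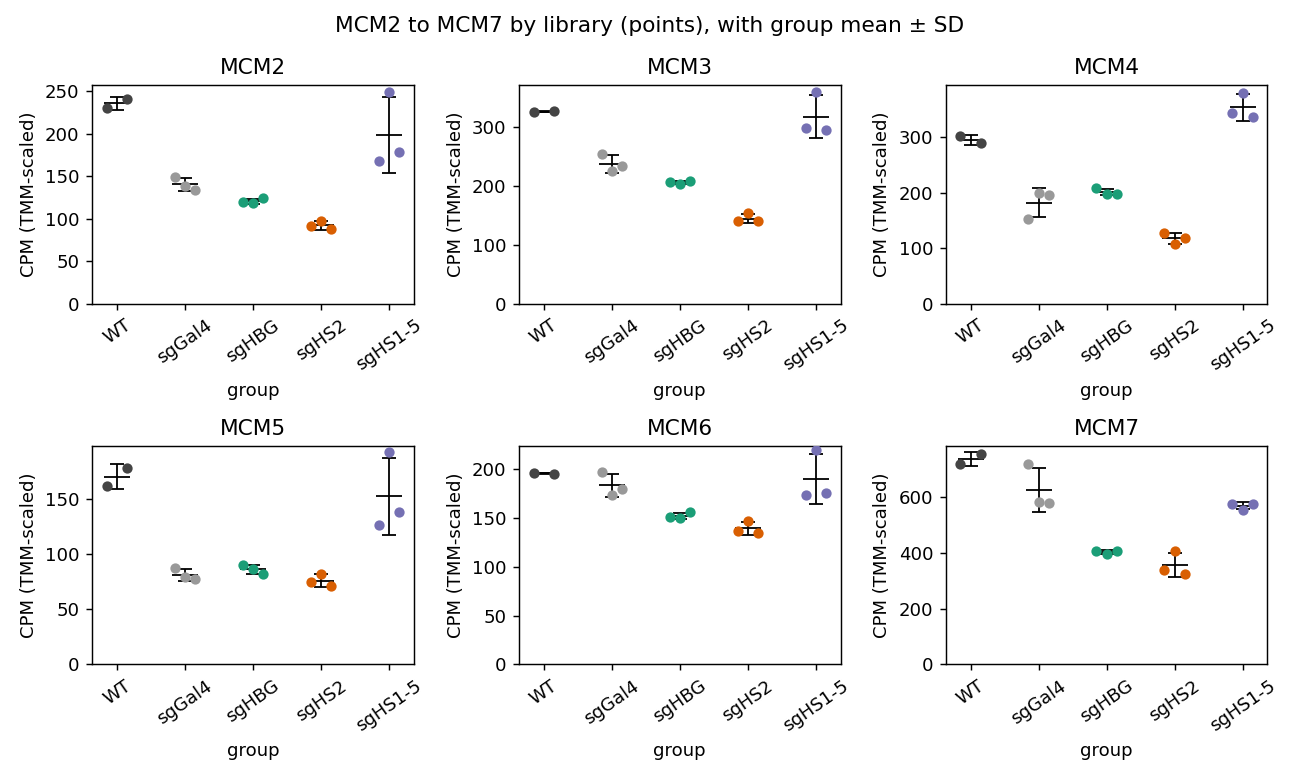
CPM (y axes, from 0) of the 6 MCM2-7 subunit genes in each library (points) by group (x axes), with group mean and SD. In each panel the sgHS2 mean is the lowest, and the sgHS1-5 points for MCM4 lie above WT, whereas the MCM7 points lie below WT.

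Of the 8 genes that activate the helicase, 7 were lower in sgHS2 than in sgGal4 and all 8 were higher in sgHS1-5 than in sgHS2. MCM10, which helps convert the loaded ring into a moving helicase, had separate levels in the 5 groups. MCM10 stood at 68.0 and 64.9 CPM in WT, 21.99, 30.9 and 32.4 CPM in sgGal4 and 35.6, 35.3 and 37.5 CPM in sgHBG. In sgHS2 MCM10 was at 20.8, 16.0 and 18.2 CPM, and in sgHS1-5 at 56.2, 46.2 and 57.6 CPM. In sgGal4 1 MCM10 was far under its replicates and just above sgHS2. MCM10 was 2.33-fold lower in sgGal4 than in WT (log2 −1.22 ± 0.16, adjusted p = 6.49e-05), 1.55-fold lower in sgHS2 than in sgGal4 (log2 −0.64 ± 0.15, adjusted p = 0.00711) and 1.87-fold higher in sgHS1-5 than in sgGal4 (log2 0.90 ± 0.15, adjusted p = 0.000569).

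CDC7 is the kinase that phosphorylates MCM2-7 at the onset of firing. CDC7 was measured at 44.9 and 43.0 CPM in the WT libraries, 23.97, 25.6 and 27.9 CPM in sgGal4 and 19.2, 22.5 and 19.5 CPM in sgHBG. For CDC7, sgHS2 gave 14.9, 10.4 and 13.4 CPM and sgHS1-5 42.1, 40.7 and 42.7 CPM. The groups again did not overlap, in the order WT, sgHS1-5, sgGal4, sgHBG and sgHS2. CDC7 was 2.003-fold lower in sgHS2 than in sgGal4 (log2 −1.002 ± 0.13, adjusted p = 0.000112) and 3.24-fold higher in sgHS1-5 than in sgHS2 (log2 1.70 ± 0.13, adjusted p = 1.82e-06). DBF4, its activating partner, was lower in sgHS2 than in sgGal4 by log2 −0.42 ± 0.14, adjusted p = 0.0365, and not called between sgGal4 and WT (log2 0.20, adjusted p = 0.325). The DBF4 call between sgHS2 and sgGal4 was lost without sgGal4 2, sgGal4 3, sgHS2 1, sgHS2 2 or sgHS2 3, each left out alone (log2 −0.45 to −0.31, adjusted p = 0.0735 to 0.125).

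CDC45 and the GINS proteins join MCM2-7 at the fork. WT libraries held 357 and 361 CPM of CDC45, sgGal4 libraries 228, 158 and 152 CPM and sgHBG libraries 171, 175 and 172 CPM. CDC45 reached 102, 122 and 100.5 CPM in sgHS2 and 239, 177 and 214 CPM in sgHS1-5. CDC45 was highest in WT and lowest in sgHS2 without overlap, and sgGal4 overlapped both sgHBG and sgHS1-5. It was 3.31-fold lower in sgHS2 than in WT (log2 −1.73 ± 0.17, adjusted p = 8.94e-06) and 2.005-fold lower in sgGal4 than in WT (log2 −1.003 ± 0.17, adjusted p = 0.00047). GINS2 stood at 53.97 and 53.5 CPM in WT, 32.2, 19.7 and 18.5 CPM in sgGal4 and 18.8, 19.7 and 19.2 CPM in sgHBG. In sgHS2 GINS2 was at 14.3, 15.7 and 14.3 CPM, and in sgHS1-5 at 25.1, 29.2 and 25.7 CPM. GINS2 had the same order, and in sgGal4 1 it was 0.74 (log2) above its replicates. It was 2.30-fold lower in sgGal4 (log2 −1.20 ± 0.18, adjusted p = 0.000211) and 2.01-fold lower in sgHS1-5 (log2 −1.01 ± 0.18, adjusted p = 0.000847) than in WT.

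GINS3 was measured at 24.7 and 21.8 CPM in the WT libraries, 28.4, 20.7 and 21.3 CPM in sgGal4 and 17.3, 16.5 and 16.0 CPM in sgHBG. For GINS3, sgHS2 gave 9.44, 11.9 and 11.7 CPM and sgHS1-5 19.1, 24.2 and 21.6 CPM. GINS3 differed from GINS2 in that WT, sgGal4 and sgHS1-5 overlapped. GINS3 was 2.12-fold lower in sgHS2 than in sgGal4 (log2 −1.09 ± 0.15, adjusted p = 0.000188) and was lower in sgHBG than in sgGal4 by log2 −0.49 ± 0.15, adjusted p = 0.0276. Between sgGal4 and WT it was not called (log2 0.0071, adjusted p = 0.984). GINS1 was lower in sgHS2 than in sgGal4 (log2 −0.82 ± 0.13, adjusted p = 0.000393), and GINS4 was not called there (log2 −0.36, adjusted p = 0.189). The GINS3 call between sgHBG and sgGal4 was lost without sgGal4 1, sgHBG 1, sgHBG 2 or sgHBG 3, each left out alone (log2 −0.53 to −0.34, adjusted p = 0.0564 to 0.0958).

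PCNA is the sliding clamp and RFC1 to RFC5 are the subunits of its loader. In this class 4 of 6 genes were lower in sgHS2 than in sgGal4, and RFC1 and RFC3 were not called. RFC1, the large subunit, was an exception to the low sgHS2 levels. WT libraries held 138 and 133 CPM of RFC1, sgGal4 libraries 63.8, 77.8 and 75.6 CPM and sgHBG libraries 72.1, 66.6 and 71.5 CPM. RFC1 reached 94.8, 77.1 and 91.2 CPM in sgHS2 and 87.3, 129 and 85.4 CPM in sgHS1-5. Its lowest groups were sgGal4 and sgHBG, and sgHS2 overlapped sgGal4 and sgHS1-5. RFC1 was 1.87-fold lower in sgGal4 than in WT (log2 −0.90 ± 0.17, adjusted p = 0.000853) and higher in sgHS1-5 than in sgGal4 (log2 0.47 ± 0.15, adjusted p = 0.0255). The RFC1 call between sgHS1-5 and sgGal4 was lost without sgHS1-5 2 (log2 0.26, adjusted p = 0.11).

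RFC4 stood at 104 and 108 CPM in WT, 190.1, 92.4 and 89.8 CPM in sgGal4 and 69.3, 71.5 and 69.2 CPM in sgHBG. In sgHS2 RFC4 was at 53.0, 61.8 and 54.3 CPM, and in sgHS1-5 at 74.0, 78.2 and 76.5 CPM. For RFC4, a small loader subunit, sgGal4 1 stood well above all other libraries. RFC4 was 2.20-fold lower in sgHS2 than in sgGal4 (log2 −1.14 ± 0.23, adjusted p = 0.00232), 1.77-fold lower in sgHBG (log2 −0.82 ± 0.22, adjusted p = 0.0186) and 1.62-fold lower in sgHS1-5 (log2 −0.70 ± 0.22, adjusted p = 0.0254). Without sgGal4 1, these differences were log2 −0.69, adjusted p = 1.6e-05 for sgHS2, log2 −0.38, adjusted p = 0.0024 for sgHBG and log2 −0.26, adjusted p = 0.0151 for sgHS1-5. The RFC4 call between sgHBG and sgGal4 was lost without sgHBG 1, sgHBG 2 or sgHBG 3, each left out alone (log2 −0.84 to −0.81, adjusted p = 0.057 to 0.0624). For RFC4, sgHS1-5 and sgGal4 no longer differed at the threshold without sgHS1-5 1, sgHS1-5 2 or sgHS1-5 3, each left out alone (log2 −0.71 to −0.68, adjusted p = 0.0588 to 0.0663).

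RFC5 was measured at 73.8 and 63.9 CPM in the WT libraries, 49.1, 53.4 and 49.9 CPM in sgGal4 and 41.2, 43.1 and 39.5 CPM in sgHBG. For RFC5, sgHS2 gave 32.2, 27.5 and 33.9 CPM and sgHS1-5 63.0, 58.6 and 58.3 CPM. RFC5 separated all 5 groups, with sgHS2 lowest. It was 1.63-fold lower in sgHS2 than in sgGal4 (log2 −0.70 ± 0.10, adjusted p = 0.00029), lower in sgHBG than in sgGal4 (log2 −0.30 ± 0.10, adjusted p = 0.0485) and lower in sgGal4 than in WT (log2 −0.44 ± 0.11, adjusted p = 0.00732). PCNA was 1.88-fold lower in sgHS2 than in sgGal4 (log2 −0.91 ± 0.24, adjusted p = 0.0125) and was not called between sgGal4 and WT (log2 −0.089, adjusted p = 0.819). Its sgGal4 libraries read 210.4, 111 and 112 CPM, so sgGal4 1 again stood above the other pair. The RFC5 call between sgHBG and sgGal4 was lost without sgGal4 2, sgGal4 3, sgHBG 1, sgHBG 2 or sgHBG 3, each left out alone (log2 −0.33 to −0.26, adjusted p = 0.065 to 0.156). For RFC5, sgGal4 and WT no longer differed at the threshold without WT 1 (log2 −0.33, adjusted p = 0.111). The PCNA difference between sgHS2 and sgGal4 was log2 −0.55, adjusted p = 0.0227, without sgGal4 1.

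The polymerase and primase genes were called lower than WT in sgGal4 (5 of 5), in sgHBG (5 of 5) and in sgHS2 (5 of 5), which share the WT libraries. POLA1, the catalytic subunit of polymerase α, was the 1 gene of the 41 called higher in sgHS2 than in sgGal4. WT libraries held 52.6 and 47.1 CPM of POLA1, sgGal4 libraries 14.6, 20.7 and 20.1 CPM and sgHBG libraries 30.8, 30.9 and 28.6 CPM. POLA1 reached 28.0, 22.6 and 23.8 CPM in sgHS2 and 41.3, 46.0 and 38.7 CPM in sgHS1-5. The groups did not overlap, and sgGal4 rather than sgHS2 was the lowest. POLA1 was 2.68-fold lower in sgGal4 than in WT (log2 −1.42 ± 0.15, adjusted p = 1.09e-05) and 2.26-fold higher in sgHS1-5 than in sgGal4 (log2 1.18 ± 0.14, adjusted p = 5.14e-05). It was 1.62-fold higher in sgHBG (log2 0.70 ± 0.14, adjusted p = 0.00345) and 1.34-fold higher in sgHS2 (log2 0.42 ± 0.14, adjusted p = 0.038) than in sgGal4. The POLA1 call between sgHS2 and sgGal4 was lost without sgGal4 1, sgHS2 1 or sgHS2 3, each left out alone (log2 0.28 to 0.45, adjusted p = 0.0641 to 0.16).

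PRIM1, the catalytic primase subunit that works with POLA1, did not share this order. PRIM1 stood at 135 and 125 CPM in WT, 56.9, 53.9 and 56.1 CPM in sgGal4 and 55.0, 51.8 and 51.7 CPM in sgHBG. In sgHS2 PRIM1 was at 38.4, 34.6 and 37.9 CPM, and in sgHS1-5 at 57.3, 71.4 and 55.2 CPM. WT was far above the rest, sgHS2 was lowest, and sgGal4 overlapped sgHBG and sgHS1-5. PRIM1 was 2.34-fold lower in sgGal4 (log2 −1.22 ± 0.12, adjusted p = 4.1e-06), 3.51-fold lower in sgHS2 (log2 −1.81 ± 0.12, adjusted p = 3.16e-07) and 2.12-fold lower in sgHS1-5 (log2 −1.08 ± 0.12, adjusted p = 1.21e-05) than in WT.

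POLE was measured at 239 and 245 CPM in the WT libraries, 93.9, 129 and 141 CPM in sgGal4 and 135, 133 and 138 CPM in sgHBG. For POLE, sgHS2 gave 95.3, 84.2 and 93.0 CPM and sgHS1-5 260.4, 227 and 249.8 CPM. POLE encodes the catalytic subunit of polymerase ε, which copies the leading strand, and its sgHS1-5 libraries lay at the WT level. POLE was 2.02-fold higher in sgHS1-5 than in sgGal4 (log2 1.01 ± 0.13, adjusted p = 9.57e-05), 1.99-fold lower in sgGal4 than in WT (log2 −0.99 ± 0.14, adjusted p = 0.000129) and lower in sgHS2 than in sgGal4 (log2 −0.42 ± 0.13, adjusted p = 0.0273). The POLE call between sgHS2 and sgGal4 was lost without sgGal4 2, sgGal4 3, sgHS2 1, sgHS2 2 or sgHS2 3, each left out alone (log2 −0.46 to −0.30, adjusted p = 0.054 to 0.102). POLD1, the catalytic subunit of polymerase δ, was higher in sgHS1-5 than in sgGal4 (log2 0.64 ± 0.13, adjusted p = 0.00186) and not called between sgHS2 and sgGal4 (log2 −0.22, adjusted p = 0.212). POLA2, the regulatory subunit of polymerase α, changed by log2 −0.37 ± 0.093, adjusted p = 0.00938 in sgHS2 and by log2 −0.28 ± 0.093, adjusted p = 0.0417 in sgHBG against sgGal4. The POLA2 call between sgHBG and sgGal4 was lost without sgGal4 1, sgHBG 1, sgHBG 2 or sgHBG 3, each left out alone (log2 −0.29 to −0.20, adjusted p = 0.0552 to 0.125).

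FEN1, which trims flaps from Okazaki fragments, and LIG1, which seals them, were both lower in sgHS2 than in sgGal4. WT libraries held 149 and 170.4 CPM of FEN1, sgGal4 libraries 252, 129.8 and 122 CPM and sgHBG libraries 119, 117 and 118 CPM. FEN1 reached 89.5, 113 and 92.8 CPM in sgHS2 and 159, 160.3 and 158 CPM in sgHS1-5. The FEN1 level in sgGal4 1 was the highest of all libraries, and WT, sgGal4 and sgHS1-5 overlapped. FEN1 was 1.71-fold lower in sgHS2 than in sgGal4 (log2 −0.77 ± 0.22, adjusted p = 0.0179) and not called between sgGal4 and WT (log2 0.074, adjusted p = 0.837). LIG1 stood at 121 and 121 CPM in WT, 106, 79.5 and 78.99 CPM in sgGal4 and 72.6, 78.3 and 78.6 CPM in sgHBG. In sgHS2 LIG1 was at 52.6, 60.3 and 52.2 CPM, and in sgHS1-5 at 109, 119 and 96.4 CPM. LIG1 was highest in WT and lowest in sgHS2 with no overlap, and sgGal4 overlapped sgHS1-5. It was 1.60-fold lower in sgHS2 than in sgGal4 (log2 −0.68 ± 0.13, adjusted p = 0.00159) and lower in sgGal4 than in WT (log2 −0.46 ± 0.14, adjusted p = 0.0188). The FEN1 call between sgHS2 and sgGal4 was lost without sgHS2 1 or sgHS2 3, each left out alone (log2 −0.73 to −0.71, adjusted p = 0.0659 to 0.0714). The FEN1 difference between sgHS2 and sgGal4 was log2 −0.36, adjusted p = 0.00921, without sgGal4 1. For LIG1, sgGal4 and WT no longer differed at the threshold without WT 1, WT 2, sgGal4 2 or sgGal4 3, each left out alone (log2 −0.46 to −0.38, adjusted p = 0.0612 to 0.0865).

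The nucleotide supply genes RRM2, a subunit of ribonucleotide reductase, and TYMS, which makes thymidylate, were both higher in sgHS1-5 than in sgGal4. RRM2 was measured at 164 and 163 CPM in the WT libraries, 56.9, 73.0 and 76.2 CPM in sgGal4 and 107, 107 and 112 CPM in sgHBG. For RRM2, sgHS2 gave 58.3, 59.6 and 61.0 CPM and sgHS1-5 139, 229 and 153 CPM. In sgHS1-5, RRM2 lay on both sides of WT, with only sgHS1-5 2 above it. RRM2 was intermediate in sgHBG, and low in sgGal4 and sgHS2, which overlapped. It was 2.37-fold lower in sgGal4 than in WT (log2 −1.24 ± 0.18, adjusted p = 0.000129), 2.53-fold higher in sgHS1-5 than in sgGal4 (log2 1.34 ± 0.16, adjusted p = 7e-05) and 1.58-fold higher in sgHBG than in sgGal4 (log2 0.66 ± 0.16, adjusted p = 0.0117). WT libraries held 279 and 278 CPM of TYMS, sgGal4 libraries 196, 153 and 146 CPM and sgHBG libraries 167, 170.1 and 175 CPM. TYMS reached 105, 118 and 106 CPM in sgHS2 and 231, 260.0 and 226 CPM in sgHS1-5. TYMS overlapped only between sgGal4 and sgHBG. It was 1.502-fold lower in sgHS2 than in sgGal4 (log2 −0.59 ± 0.11, adjusted p = 0.002) and 1.45-fold higher in sgHS1-5 than in sgGal4 (log2 0.54 ± 0.11, adjusted p = 0.0028).

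The sgGal4 replicate that stood apart did so along transcript length, and this touches the sgGal4 levels of the members. Over 12938 genes with an annotated length, sgGal4 1 lay 0.68 (median log2) above the mean of its replicates in the 20% of genes with the shortest transcripts and at −0.64 in the 20% with the longest. Across the 41 genes, the deviation of sgGal4 1 had a Pearson correlation of −0.654 with log2 length, a description over genes that share 1 library. Against the mean of the other sgGal4 libraries, RFC4 was at 1.06, FEN1 at 0.999 and PCNA at 0.91 on the log2 scale, with transcripts of 1448, 2296 and 1359 bases. GINS4 was at −0.97, ORC4 at −0.62, DBF4 at −0.58 and POLE at −0.52. In sgHS2 2 the same correlation was −0.385. Over the 12938 genes, sgHS2 2 lay 0.28 (median log2) above its replicates in the shortest 20% and at −0.28 in the longest 20%. Over all genes tested, the deviations of sgGal4 1 and sgHS2 2 from their group means had a correlation of 0.683. In sgHS1-5 2, 28 of 41 members were above the mean of its replicates, with a median deviation of 0.078 on the log2 scale. What sets these deviations was not tested. Without sgGal4 1 and sgHS2 2, 35 members were lower in sgHS2 than in sgGal4 and 30 were lower in sgGal4 than in WT. In that fit 42.1% and 57.3% of all genes were called in these comparisons, in place of 30.1% and 42.4%.

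**Figure D5:**
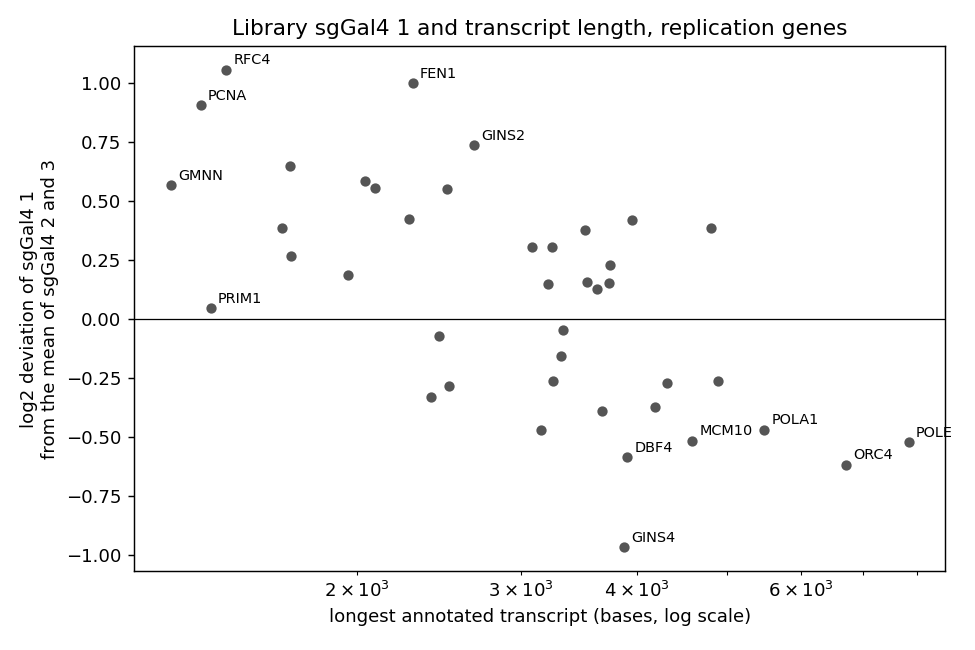
Deviation of each of the 41 genes in library sgGal4 1 from the mean of sgGal4 2 and sgGal4 3 (y axis, log2) against the length of its longest annotated transcript (x axis, bases, log scale). Points are genes: RFC4, FEN1 and PCNA lie highest among the short transcripts, and GINS4, ORC4 and POLE lie low among the long ones.

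A list of 36 other replication and S phase genes, outside the 41, was tested in the same way. In this list 1 higher and 20 lower were called in sgHS2 against sgGal4 (median −0.50), 3 higher and 8 lower in sgHBG against sgGal4 (median −0.092), 14 higher and 1 lower in sgHS1-5 against sgGal4 (median 0.27) and 1 higher and 17 lower in sgGal4 against WT (median −0.50). The share of the list called, beside the share of all genes called, was 58.3% beside 30.1% in sgHS2 against sgGal4, 30.6% beside 24.7% in sgHBG against sgGal4, 41.7% beside 40.4% in sgHS1-5 against sgGal4 and 50% beside 42.4% in sgGal4 against WT. These shares pool higher and lower calls, as do those of the lists that follow. By direction, 14.5% of all genes were higher and 15.6% lower in sgHS2 against sgGal4, and 12.1% and 12.6% in sgHBG against sgGal4. The shares of all genes higher and lower were 20.3% and 20.2% in sgHS1-5 against sgGal4, and 22.7% and 19.6% in sgGal4 against WT. TIMELESS, a fork protection factor, was lower in sgHS2 than in sgGal4 (log2 −0.66 ± 0.082, adjusted p = 9.3e-05). The clamp loader factor DSCC1 was lower there too (log2 −1.21 ± 0.16, adjusted p = 0.000147). UHRF1, which reads hemimethylated DNA behind the fork, was 104 CPM on average in sgHS1-5 and 30.8 CPM in sgGal4 (log2 1.75 ± 0.23, adjusted p = 0.000109). The single-strand binding subunit RPA3 was lower in sgHBG than in sgGal4 (log2 −1.17 ± 0.31, adjusted p = 0.0175). MCM9, a relative of the helicase subunits, was higher there (log2 0.63 ± 0.17, adjusted p = 0.0172). The RPA3 call between sgHBG and sgGal4 was lost without sgHBG 1, sgHBG 2 or sgHBG 3, each left out alone (log2 −1.19 to −1.16, adjusted p = 0.0542 to 0.06). The RPA3 difference between sgHBG and sgGal4 was log2 −0.51, adjusted p = 0.00295, without sgGal4 1. For MCM9, sgHBG and sgGal4 no longer differed at the threshold without sgHBG 1, sgHBG 2 or sgHBG 3, each left out alone (log2 0.62 to 0.64, adjusted p = 0.0513 to 0.0554). With 1 library left out, the number called higher in sgHS2 against sgGal4 went from 1 to 0 without sgHS2 1 or sgHS2 3. The number called higher in sgHBG against sgGal4 went from 3 to 0 without sgHBG 1, sgHBG 2 or sgHBG 3. That called lower in sgHBG against sgGal4 went from 8 to 1 without sgHBG 2 and 2 without sgHBG 1 or sgHBG 3. The number called lower in sgHS1-5 against sgGal4 went from 1 to 2 without sgGal4 1 or sgGal4 3 and 3 without sgGal4 2. That called higher in sgGal4 against WT went from 1 to 0 without WT 1, WT 2, sgGal4 2 or sgGal4 3.

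The 31 genes that control the passage from G1 into S phase were tested gene by gene too. Of these, 1 higher and 11 lower were called in sgHS2 against sgGal4, 0 higher and 2 lower in sgHBG against sgGal4, 9 higher and 3 lower in sgHS1-5 against sgGal4 and 4 higher and 12 lower in sgGal4 against WT. The share of the list called, beside the share of all genes called, was 38.7% beside 30.1% in sgHS2 against sgGal4, 6.45% beside 24.7% in sgHBG against sgGal4, 38.7% beside 40.4% in sgHS1-5 against sgGal4 and 51.6% beside 42.4% in sgGal4 against WT. The list medians were −0.31, 0.054, 0.13 and −0.20 in the same order. CCND1, a cyclin D gene, averaged 5.90 CPM in WT and 33.7 CPM in sgGal4 (log2 2.51 ± 0.16, adjusted p = 1.57e-07). CDKN1A, which encodes the CDK inhibitor p21, averaged 27.2 CPM in WT and 81.0 CPM in sgGal4 (log2 1.57 ± 0.12, adjusted p = 8.12e-07). Against WT, CCND1 was also higher in sgHBG (log2 2.53 ± 0.16, adjusted p = 2.14e-07), sgHS2 (log2 1.83 ± 0.16, adjusted p = 2.99e-06) and sgHS1-5 (log2 2.42 ± 0.16, adjusted p = 2.27e-07). The activator gene E2F2 was lower in sgGal4 than in WT (log2 −1.17 ± 0.11, adjusted p = 3.32e-06) and higher in sgHS1-5 than in sgGal4 (log2 0.68 ± 0.10, adjusted p = 0.000246). CDC25A, a phosphatase that activates CDK2, was lower in sgHS2 than in sgGal4 (log2 −0.82 ± 0.10, adjusted p = 5.45e-05). CDKN1C, which encodes the CDK inhibitor p57, averaged 66.9 CPM in sgGal4 and was lower in sgHS2 (log2 −1.74 ± 0.21, adjusted p = 7.78e-05), sgHBG (log2 −1.86 ± 0.21, adjusted p = 8.02e-05) and sgHS1-5 (log2 −1.39 ± 0.21, adjusted p = 0.00033), which share those sgGal4 libraries. MYC averaged 371 CPM in sgHS1-5 and 169 CPM in sgGal4 (log2 1.13 ± 0.18, adjusted p = 0.000434). For the 0 called higher by edgeR in sgHBG against sgGal4, 3 had an unadjusted p under 0.05, and DESeq2 called 2 and limma-trend 2. With 1 library left out, the number called higher in sgHS2 against sgGal4 went from 1 to 0 without sgHS2 2 and 3 without sgGal4 1. The number called higher in sgHBG against sgGal4 went from 0 to 2 without sgGal4 1. That called lower in sgHBG against sgGal4 went from 2 to 1 without sgHBG 3. The number called lower in sgHS1-5 against sgGal4 went from 3 to 5 without sgGal4 1.

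Mitotic genes, which act after replication, were compared as a list of 40. Of these, 0 higher and 18 lower were called in sgHS2 against sgGal4 (median −0.39), 1 higher and 8 lower in sgHBG against sgGal4, 14 higher and 5 lower in sgHS1-5 against sgGal4 (median 0.13) and 3 higher and 18 lower in sgGal4 against WT (median −0.29). The share of the list called, beside the share of all genes called, was 45% beside 30.1% in sgHS2 against sgGal4, 22.5% beside 24.7% in sgHBG against sgGal4, 47.5% beside 40.4% in sgHS1-5 against sgGal4 and 52.5% beside 42.4% in sgGal4 against WT. NUF2, a kinetochore subunit, was lower in sgHS2 than in sgGal4 (log2 −1.12 ± 0.13, adjusted p = 6.29e-05). ZWINT, another kinetochore protein gene, was lower in sgGal4 than in WT (log2 −1.24 ± 0.12, adjusted p = 6.18e-06) and higher in sgHS1-5 than in sgGal4 (log2 0.88 ± 0.11, adjusted p = 8.94e-05). For the 0 called higher by edgeR in sgHS2 against sgGal4, 0 had an unadjusted p under 0.05, and DESeq2 called 0 and limma-trend 0. With 1 library left out, the number called higher in sgHBG against sgGal4 went from 1 to 0 without sgHBG 2 or sgHBG 3 and 2 without sgGal4 3. The number called lower in sgHBG against sgGal4 went from 8 to 3 without sgHBG 2 or sgHBG 3 and 5 without sgHBG 1. That called lower in sgHS1-5 against sgGal4 went from 5 to 3 without sgHS1-5 3. The number called higher in sgGal4 against WT went from 3 to 1 without WT 1, WT 2, sgGal4 2 or sgGal4 3. The shares called in the 3 lists and in the 41 genes were not tested against each other.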

How the data were processed

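Counts per gene and RPKM values for 14 RNA-seq libraries were used as the authors deposited them. Per the submitters' processing notes, TopHat, Cufflinks and DESeq were used with hg19, and their roles, versions and the annotation are not given in the sources used here. The deposited RPKM values, scaled by the authors to length and depth, served for levels between genes and as an alternative. Libraries were TruSeq v2, per the labels' protocols, a kit that does not mark strand, so antisense partners cannot be told apart.

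Groups came from the titles. Counts were fitted with edgeR 4.0.16 (R 4.3.3): filterByExpr (minimum count 10, minimum total 15), TMM, 1 mean per group over all 14 libraries, 9 residual degrees of freedom, the quasi-likelihood F test, and Benjamini-Hochberg adjustment over 14406 genes. Fold changes are fitted ratios, and SE is the log2 difference over the root of F. The procedure was tested on simulated data. Alternatives were RLE size factors, other low-count filters, DESeq2 1.42.0, limma-trend (limma 3.58.1) on log2(RPKM + 1) and log2(RPKM + 0.1), a replicate block, fits of 2 groups, and leaving out libraries.

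The 41 members and the other lists were chosen with earlier results of these data known. Values in every library are given for the member of each role class with the lowest p in sgHS2, sgHBG or sgHS1-5 against sgGal4 or sgGal4 against WT, and for members called with at least a 2-fold difference in 1 of these. From other lists, up to 4 genes with the lowest p per comparison could be named. E2F words were searched in RefSeq promoter windows of GRCh38.p14, a build other than that of the files, used for sequence only.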

Additional observations from a re-analysis of the deposited data

How the results depend on the processing

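Of 538 calls of single genes, 336 kept their call in every alternative run, 202 lost it in at least 1, and none reversed; a gene can be counted in several comparisons. The counts of members called that moved by more than 1.5 times are given here, and the cause was not tested. Without a low-count filter, the counts were 0 higher in sgHS2 against sgGal4, 2 lower in sgHS1-5 against sgGal4, 1 higher in sgGal4 against WT and 0 higher in sgHS1-5 against WT. With only the 2 compared groups fitted, the counts were 0 higher in sgHS2 against sgGal4, 16 lower in sgHS2 against sgGal4, 3 lower in sgHBG against sgGal4, 8 higher in sgHS1-5 against sgGal4, 0 lower in sgHS1-5 against sgGal4, 0 higher in sgGal4 against WT, 2 higher in sgHBG against WT, 1 higher in sgHS2 against sgHBG, 24 lower in sgHS2 against sgHBG and 34 higher in sgHS1-5 against sgHBG. Without sgGal4 1 and sgHS2 2, the counts were 13 lower in sgHBG against sgGal4, 1 higher in sgHS2 against WT, 5 higher in sgHS1-5 against WT, 19 lower in sgHS1-5 against WT, 28 lower in sgHS2 against sgHBG and 35 higher in sgHS1-5 against sgHBG. Without sgHS1-5 2 and 3, the counts were 7 higher in sgHS1-5 against sgGal4, 1 lower in sgHS1-5 against sgGal4, 1 higher in sgGal4 against WT, 0 higher in sgHS1-5 against WT and 8 higher in sgHS1-5 against sgHBG. Without these 4 libraries, the counts were 3 higher in sgHS2 against sgGal4, 6 higher in sgHBG against sgGal4, 21 lower in sgHBG against sgGal4, 4 higher in sgGal4 against WT, 2 higher in sgHS2 against WT, 2 higher in sgHBG against WT, 5 higher in sgHS1-5 against WT, 26 lower in sgHS1-5 against WT, 1 higher in sgHS2 against sgHBG, 34 lower in sgHS2 against sgHBG and 33 higher in sgHS1-5 against sgHBG. With limma-trend on log2(RPKM + 1), the counts were 0 higher in sgHS2 against sgGal4, 2 lower in sgHS1-5 against sgGal4, 0 higher in sgGal4 against WT and 0 higher in sgHS1-5 against WT. With log2(RPKM + 0.1), the counts were 0 higher in sgHS2 against sgGal4, 2 lower in sgHS1-5 against sgGal4, 0 higher in sgGal4 against WT and 0 higher in sgHS1-5 against WT. With log2(RPKM + 1) and no filter, the counts were 0 higher in sgHS2 against sgGal4, 1 lower in sgHS1-5 against sgGal4, 0 higher in sgGal4 against WT and 0 higher in sgHS1-5 against WT. With the DESeq2 Wald test, the counts were 11 lower in sgHBG against sgGal4. Leaving out 1 library at a time gave 0 to 1 higher in sgHS2 against sgGal4, 3 to 10 lower in sgHBG against sgGal4, 1 to 3 lower in sgHS1-5 against sgGal4, 0 to 2 higher in sgGal4 against WT and 0 to 1 higher in sgHS1-5 against WT. Deviations of same-numbered libraries of different groups had a median correlation of −0.00838 over 26 pairs, 2 above 0.1. Pairs with unlike numbers had a median of 0.00531 over 52 pairs, 6 above 0.1. Single pairs ran from −0.600 to 0.423 and from −0.627 to 0.683, so these medians cannot tell whether the numbers pair the libraries. With the replicate block, the counts were 0 higher in sgHS2 against sgGal4, 4 lower in sgHBG against sgGal4, 2 lower in sgHS1-5 against sgGal4 and 1 higher in sgHS1-5 against WT. With 2 or 3 libraries a group and the lower depth of sgHS1-5, small differences could not be resolved. When sgHS1-5 keeps 1 library, its spread is assumed to be that of the other groups.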
